A study of Mus musculus with 6 samples.

Results

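Interferon-stimulated genes are the genes that cells switch on when type I interferons bind the receptor made of IFNAR1 and IFNAR2. The receptor's kinases JAK1 and TYK2 phosphorylate STAT proteins, among them STAT2, which works with IRF9 in the complex ISGF3, and ISGF3 binds the interferon-stimulated response element ahead of its target genes. Many targets encode antiviral proteins, among them the IFIT, OAS and MX families, ISG15 and viperin, and others, such as USP18, feed back on the receptor. A list of 36 such genes, with the receptor subunits and ISGF3 components, was matched by symbol through the Entrez number of each array row. Of these, 35 had a named row among 25206 rows, and Ifi44 was not analysed here.

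The study compared mouse group 2 innate lymphoid cell (ILC2) lines with and without a guide against Cbfb, which encodes the beta subunit that stabilises RUNX proteins on DNA. ILC2s are lymphocytes without antigen receptors that make type 2 cytokines in response to IL-33. All cells were C57BL/6J lines grown with 10 ng/ml of IL-2 and IL-33, and both groups carried a LentiV2CRISPRGFP lentiviral construct, with a guide against CBFβ (knockout) or a non-target guide (control). GFP+ cells were sorted on day 6 after transduction, and each group had 3 arrays. The cells of both groups had thus met a lentivirus, and no array of untransduced cells was analysed here. The labels do not say how many lines, clones or guides were used, and they name no separate cultures behind the 3 arrays of a group. The p-values therefore reflect the spread among these samples alone, and that spread may be technical.

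Values are on a log2 scale, so a difference of 1 is a doubling. Array medians ranged from 3.57 to 3.63. The targeted gene, Cbfb, read 8.53, 8.73 and 8.70 in control and 7.88, 7.69 and 7.91 in knockout, a fall to 56.4% of the control signal on a linear scale (limma adjusted p = 0.00205). A CRISPR edit need not remove the transcript, so neither the edit nor CBFβ protein is measured by it. Of the ILC2 markers, Gata3 (10.58 in control), Klrg1 (11.37) and Il2ra (11.93) read high, whereas Thy1 (3.41) and Il17rb (2.53) read under 3.6, the median of all group means. Of 11 measured ILC2 markers 1 rose (Rora) and 3 fell (Il7r, Icos and Il5), a share of 36.4% beside 9.75% over all rows. Rora was also under 3.6 in control, with a mean of 3.32, and read 5.53 in knockout. Over the whole array 2457 rows passed a threshold of 0.05 on the limma adjusted p, 1389 of them higher and 1068 lower in the knockout. Leaving out 1 array gave 1307 to 1837 such rows. The count fell by more than 1.5 times without control replicate 2 (1307), knockout replicate 2 (1478), knockout replicate 3 (1517) or control replicate 3 (1565).

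The element that ISGF3 binds was looked for in the RefSeq promoter sequences of the members, on build GRCm38.p6, from 250 bases before to 50 after each transcript start. The letters searched were GAAA, then any 2 bases, then GAAA, on both strands, and matches can overlap each other within a promoter. Promoters were held for 27 of the 36 members, and 14 of these genes had a match in at least 1 promoter. Counted by promoter, 14 of 32 (43.8%) held the letters, against 3.44% of all 32851 promoters. Shown first are the 250 bases before the start for the members with a match that passed the expression test, 1 of which rose (Stat2) and 2 of which fell (Rsad2 and Gbp3). Capitals mark the matches, and each sequence runs 5′ to 3′ on the strand of its gene. A match on the opposite strand reads TTTC, any 2 bases, TTTC.

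Stat2 (chr10:128270248-128270497, plus strand): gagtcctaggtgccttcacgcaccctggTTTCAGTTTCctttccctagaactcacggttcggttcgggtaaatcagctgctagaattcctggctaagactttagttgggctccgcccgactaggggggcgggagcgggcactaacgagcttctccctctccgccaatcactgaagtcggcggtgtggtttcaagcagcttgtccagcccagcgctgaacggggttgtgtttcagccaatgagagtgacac

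Rsad2 (chr12:26456453-26456702, minus strand): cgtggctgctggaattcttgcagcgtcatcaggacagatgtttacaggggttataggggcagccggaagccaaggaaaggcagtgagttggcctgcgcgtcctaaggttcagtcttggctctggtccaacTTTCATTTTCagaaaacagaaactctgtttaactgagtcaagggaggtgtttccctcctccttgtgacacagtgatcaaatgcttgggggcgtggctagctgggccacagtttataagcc

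Gbp3 (chr3:142559794-142560043, plus strand): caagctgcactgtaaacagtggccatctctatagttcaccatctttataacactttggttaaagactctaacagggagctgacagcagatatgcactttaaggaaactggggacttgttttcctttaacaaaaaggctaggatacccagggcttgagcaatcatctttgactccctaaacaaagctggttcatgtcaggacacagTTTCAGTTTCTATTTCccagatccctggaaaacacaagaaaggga

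The same letters stood ahead of members whose expression did not pass the test. These are shown with up to 10 bases on either side of the outermost matches, because their elements can be set against those of Stat2, Rsad2 and Gbp3 above.

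Ifit1 (chr19:34640775-34640823, plus strand): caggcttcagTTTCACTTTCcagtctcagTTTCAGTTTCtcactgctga

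Ifit3 (chr19:34583363-34583426, plus strand): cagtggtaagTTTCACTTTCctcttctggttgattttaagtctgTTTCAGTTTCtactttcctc

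Isg15 (chr4:156200865-156200906, minus strand): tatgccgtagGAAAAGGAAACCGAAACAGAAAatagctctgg

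Oas1a (chr5:120907526-120907555, minus strand): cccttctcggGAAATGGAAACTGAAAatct

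Oas3 (chr5:120777715-120777744, minus strand): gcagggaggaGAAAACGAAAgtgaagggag

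Gbp2 (chr3:142620594-142620623, plus strand): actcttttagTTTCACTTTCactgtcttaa

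Ifitm2 (chr7:140955988-140956017, minus strand): ccaccaacagGAAAAGGAAAttgctagaga

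Bst2 (chr8:71537577-71537612, minus strand): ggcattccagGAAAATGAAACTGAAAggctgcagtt

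Ifih1, Eif2ak2 and Ifitm3 had their matches behind the start. Of the 14 members with a match, 1 rose, 2 fell and 11 did not pass, with a median difference of 0.04. Of 12 measured members with a promoter but no match, 4 rose, none fell and 8 did not pass, with a median of 0.26, and those that rose were Ifnar1, Ifnar2, Isg20 and Ifi35. These calls are 21.4% of the members with a match and 33.3% of those without, beside 9.75% of all rows, and the difference between both sets was not tested. The set without a match includes the receptor subunits Ifnar1 and Ifnar2 and read higher, with a median control value of 6.66 against 5.01. Of all rows, 18.1% were called above the median of the row means and 1.42% at or under it. Dhx58 and Parp14, which also rose (by 0.80 and 0.81), had no promoter sequence and stand in neither set. A match in these letters is a description of the sequence, and binding was not measured. The RUNX letters TGTGGT, searched on both strands, were in 12.5% of the member promoters and 16.8% of all promoters. The letters TTCNNNGAA of the gamma-activated sequence, which read the same on both strands, were in 28.1% and 8.3%.

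In the expression comparison, 7 of the 35 measured members rose in the knockout, 2 fell and 26 did not pass. The 7 were both receptor subunits, the ISGF3 component Stat2, and Isg20, Dhx58, Ifi35 and Parp14, and the 2 were Rsad2 and Gbp3. The 9 are 25.7% of the members, beside 9.75% of all rows called in either direction. By direction, 5.51% of all rows were called higher and 4.24% lower. The median difference over the 35 members was 0.11, and over all rows it was -0.01. Control and knockout arrays were fully separated for 13 of 35 members (37.1%) and for 27.5% of all rows. All 13 were among the 25 members with a mean above 3.6, the median of the row means. They are 52% of those 25, beside 43.8% of all rows above that level. At or under it 0 of 10 members were separated, beside 11.2% of all rows there. The members that moved did so by 1.34 to 1.94 times on a linear scale, and in these bulk samples a change in the number of cells that express a gene and a change in its RNA per cell cannot be told apart.

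**Figure D1:**
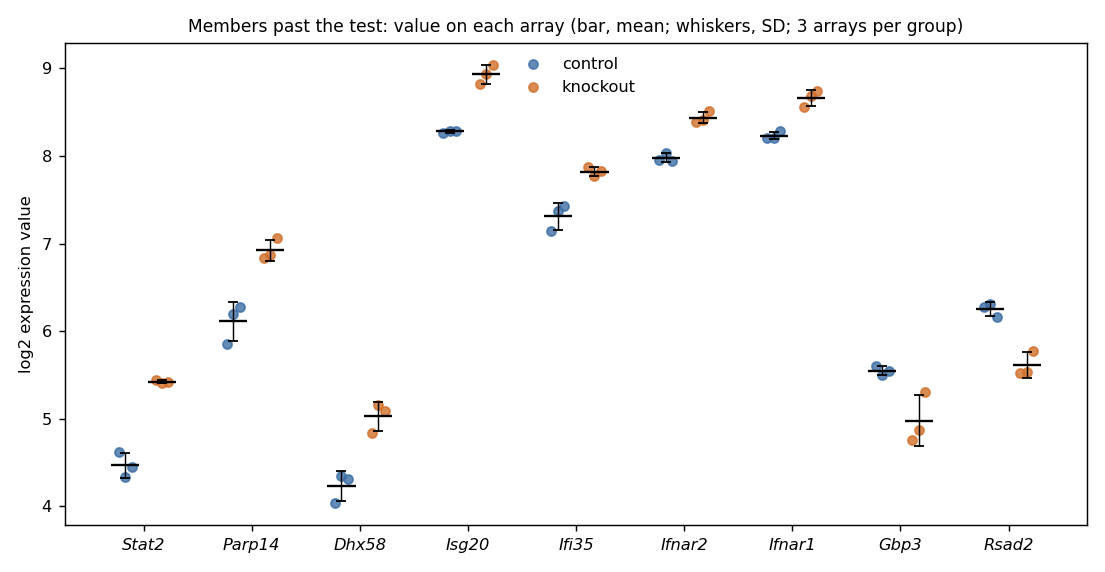
Log2 expression value (vertical axis) of the 9 members past the test on each of the 3 control and 3 knockout arrays, with group means as bars and SDs as whiskers. Knockout arrays lie above all control arrays for 7 genes and below them for Gbp3 and Rsad2, and the widest spread is that of Gbp3 in the knockout (4.76 to 5.31).

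Both subunits of the type I interferon receptor were well above the middle of the array and rose. Ifnar1, the subunit that pairs with the kinase TYK2, read 8.21, 8.21 and 8.28 in control and 8.56, 8.68 and 8.74 in knockout. Ifnar2, the subunit that pairs with JAK1 and binds interferon most tightly, read 7.96, 8.04 and 7.94 in control and 8.39, 8.41 and 8.51 in knockout. Every knockout array lay above every control array for both genes. The differences were 0.43 with a standard error of 0.085 for Ifnar1 and 0.46 with 0.082 for Ifnar2, or 1.34-fold and 1.37-fold (limma adjusted p = 0.0175 and 0.0115). The rise of Ifnar1 missed the threshold in 4 of 6 fits that left out 1 array, those without control replicate 1, control replicate 2, knockout replicate 2 and knockout replicate 3 (adjusted p 0.0264 to 0.0705 over the 6). That of Ifnar2 passed in all 6.

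The kinases joined to the receptor gave no call. Jak1 read 10.43 ± 0.11 in control and 10.36 ± 0.032 in knockout (mean ± SD, n = 3 arrays per group, as throughout; 95% interval of the difference -0.28 to 0.13). Tyk2 read 7.05 ± 0.072 and 7.18 ± 0.044 (interval -0.06 to 0.32). These intervals are for single genes and are not adjusted over all rows. With 3 arrays a group, changes within them, and some beyond them, could go uncalled.

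Among the transcription factors, Stat2, the ISGF3 subunit that carries the activation domain, had the largest rise of the 35 members. It read 4.62, 4.34 and 4.45 in control and 5.44, 5.41 and 5.42 in knockout. The lowest knockout array stood far above the highest control array, and the knockout arrays lay within 0.03 of each other. Its mean went from 4.47 ± 0.14 to 5.42 ± 0.015, a difference of 0.95 with a standard error of 0.094 (1.94-fold; limma adjusted p = 0.000859). Irf9, the DNA-binding subunit of ISGF3, read 5.49, 5.87 and 5.78 in control and 5.84, 5.87 and 5.95 in knockout. These groups overlapped, and the difference of 0.17 did not pass (adjusted p = 0.428).

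Irf7, the factor that amplifies interferon production and is itself interferon-inducible, was uneven between knockout arrays. It read 3.88, 4.18 and 4.06 in control and 4.09, 4.66 and 4.52 in knockout, so knockout replicate 1 lay within the control range and the others lay above it. The difference of 0.38 did not pass with all 6 arrays (limma adjusted p = 0.183), and without knockout replicate 1 it passed (adjusted p = 0.0397).

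Effectors that act on RNA or its synthesis moved in both directions. Isg20, which encodes an exonuclease that degrades single-stranded RNA, read 8.26, 8.29 and 8.29 in control and 8.82, 8.94 and 9.04 in knockout. It rose by 0.65 with a standard error of 0.087, or 1.57-fold (limma adjusted p = 0.00327). Rsad2, which encodes viperin, the enzyme that makes a chain-terminating nucleotide, read 6.28, 6.31 and 6.16 in control and 5.52, 5.54 and 5.78 in knockout. All 3 knockout arrays lay below the controls. Its mean fell by 0.64 with a standard error of 0.10 (1.55-fold lower, limma adjusted p = 0.00674). Cmpk2, a nucleotide kinase gene that interferon induces together with Rsad2, had means of 5.53 ± 0.047 and 5.81 ± 0.17 (adjusted p = 0.155, not past); this gene was chosen after its values were seen.

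The IFIT genes, which encode proteins that bind foreign RNA ends, stayed low on all arrays. Ifit1 read 3.24, 3.11 and 2.95 in control and 3.20, 3.14 and 3.0 in knockout, a difference of 0.01 (95% interval -0.22 to 0.25). Ifit2 read 2.91 ± 0.27 and 2.62 ± 0.32, and Ifit3 read 3.90 ± 0.15 and 4.10 ± 0.25. None of the 3 passed (adjusted p 0.964, 0.415 and 0.453). No detection calls tell signal from background at such values, where differences can be understated.

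Of the ISG15 system, Trim25 read well above 3.6, while Isg15 and Usp18 lay below or close to it. Isg15, the ubiquitin-like modifier that interferon strongly induces, read 3.33, 3.37 and 3.26 in control and 3.27, 2.98 and 3.05 in knockout, and the difference of -0.22 did not pass (limma adjusted p = 0.234). Usp18, the protease that removes ISG15 and blocks IFNAR2, read 3.82 ± 0.061 and 3.75 ± 0.27 (adjusted p = 0.827). Trim25, a ubiquitin and ISG15 ligase, read 6.19 ± 0.067 and 6.41 ± 0.087, without overlap but not past the test (adjusted p = 0.16). So 0 of these 3 members passed, beside 9.75% of all rows. An unadjusted p under 0.05 was found for 1, and the ordinary test without moderation passed 0 as well. Over all 25206 rows, 5780 had an unadjusted p under 0.05 and 1254 passed the ordinary test. From the wider list, Ube2l6, which encodes the conjugating enzyme for ISG15, rose from 5.23 ± 0.074 to 6.00 ± 0.14 (adjusted p = 0.00256). Uba7, the activating enzyme of the same chain, chosen after its values were seen, rose from 5.21 ± 0.11 to 5.85 ± 0.29 (adjusted p = 0.0312). Herc6, from the same wider list and also chosen after its values were seen, did not pass. It read 5.46 ± 0.26 and 5.90 ± 0.28, with overlapping arrays (adjusted p = 0.164). The rise of Uba7 missed the threshold without control replicate 1, 2 or 3 or knockout replicate 2 (adjusted p 0.0289 to 0.102 over 6 fits). It also missed it in the ordinary test without moderation.

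The OAS genes encode enzymes and relatives that sense double-stranded RNA and activate RNase L. In limma 0 of 5 passed, beside 9.75% of all rows. An unadjusted p under 0.05 was found for 0 of them, beside 5780 of all 25206 rows. The ordinary test passed 0, beside 1254 of all rows. Oas3, the brightest, read 4.45, 3.98 and 4.34 in control and 3.79, 4.07 and 3.98 in knockout (difference -0.31, adjusted p = 0.227). Oas1a, Oas2, Oasl1 and Oasl2 had both group means under 3.6. Of their differences, the largest in size was that of Oasl2, -0.15 (95% interval -0.39 to 0.10). Among all rows at or under the median level, 1.42% passed in limma. Oas1a and other close relatives in this family, and likewise in the IFIT, IFITM and GBP families, share sequence that the values alone do not separate.

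Among the GTPases, Gbp3, a guanylate-binding protein that acts against pathogens inside cells, had the second fall. It read 5.60, 5.50 and 5.55 in control and 4.76, 4.87 and 5.31 in knockout. All knockout arrays were lower, but replicate 3 lay closer to the controls than to the other knockout arrays. The mean fell by 0.57 (standard error 0.14, limma adjusted p = 0.0413). Of 6 fits with 1 array left out, 5 lost the call, all but the one without knockout replicate 3 (adjusted p 0.00728 to 0.126). The call was also lost with the replicate number as a block and after centring the columns on their medians. In the ordinary test without moderation it was lost too (adjusted p = 0.176). Gbp2, a relative, had means of 4.24 ± 0.14 and 4.35 ± 0.13 (not past, adjusted p = 0.6). Mx1 (2.64 ± 0.16 and 2.90 ± 0.19) and Mx2 (1.97 ± 0.32 and 1.89 ± 0.14), the dynamin-like antiviral GTPases, read under 3.6 in both groups, and neither passed (adjusted p 0.261 and 0.838).

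Of 4 RNA or nucleic acid sensors, Dhx58 rose. Dhx58 encodes LGP2, which tunes the sensor MDA5, and read 4.04, 4.35 and 4.31 in control and 4.84, 5.16 and 5.09 in knockout. The groups stood apart by more than the range within either, with a difference of 0.80 and a standard error of 0.12 (1.74-fold; limma adjusted p = 0.00608). Ifih1, which encodes MDA5 itself, read 6.46, 6.49 and 6.53 in control and 6.59, 6.58 and 6.54 in knockout. Its groups did not overlap, but the difference was 0.08 (95% interval -0.10 to 0.25). Zbp1, a sensor of Z-form nucleic acids, read 6.25 ± 0.23 and 6.57 ± 0.055 (adjusted p = 0.163). Eif2ak2, which encodes the translation-blocking kinase PKR, read 7.44 ± 0.11 and 7.42 ± 0.015 (interval -0.21 to 0.19).

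The membrane restriction factors read from 5.71 to 8.76 over all arrays. In limma they gave 0 calls among 4, beside 9.75% of all rows and 18.1% of rows above the median level. An unadjusted p under 0.05 was found for 0 of them, beside 5780 of all 25206 rows. The ordinary test passed 0, beside 1254 of all rows. Ifitm1 and Ifitm2, which hinder viral membrane fusion, read 8.55 ± 0.076 and 8.62 ± 0.18 in control. In knockout they read 8.46 ± 0.085 and 8.68 ± 0.066, with 95% intervals of the difference of -0.29 to 0.11 and -0.19 to 0.30. Ifitm3 read 5.77 ± 0.078 and 5.97 ± 0.09 (adjusted p = 0.243). Bst2, which encodes tetherin, the protein that holds budding virus at the cell surface, read 6.47 ± 0.11 and 6.26 ± 0.13 (adjusted p = 0.267).

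All 5 of the remaining members had a positive difference, and 2 rose. Parp14, which encodes a mono-ADP-ribosyltransferase, read 5.86, 6.20 and 6.28 in control and 6.84, 6.87 and 7.06 in knockout. Its difference was 0.81 with a standard error of 0.13 (1.75-fold; limma adjusted p = 0.00662). Ifi35, which encodes a leucine-zipper protein, read 7.14, 7.37 and 7.43 in control and 7.87, 7.77 and 7.83 in knockout, a rise of 0.51 (adjusted p = 0.0159). Both groups of arrays were apart for these 2 genes, although Ifi35 missed the threshold without knockout replicate 1 or 3 (adjusted p 0.0292 to 0.0526 over 6 fits). Both Ifi35 and Parp14 missed it in the ordinary test without moderation (adjusted p = 0.0729 and 0.0711). Parp9, a relative of Parp14, read 6.70 ± 0.11 and 6.98 ± 0.17, with knockout replicate 1 level with the highest control array (adjusted p = 0.182). Dtx3l, the ubiquitin ligase gene whose product binds PARP9, chosen after its values were seen, rose from 7.60 ± 0.035 to 8.08 ± 0.038 (adjusted p = 0.00793). Xaf1, a pro-apoptotic gene, differed by 0.28 (adjusted p = 0.152), and Rtp4, a chaperone gene of membrane receptors, by 0.06 (adjusted p = 0.837).

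**Figure D2:**
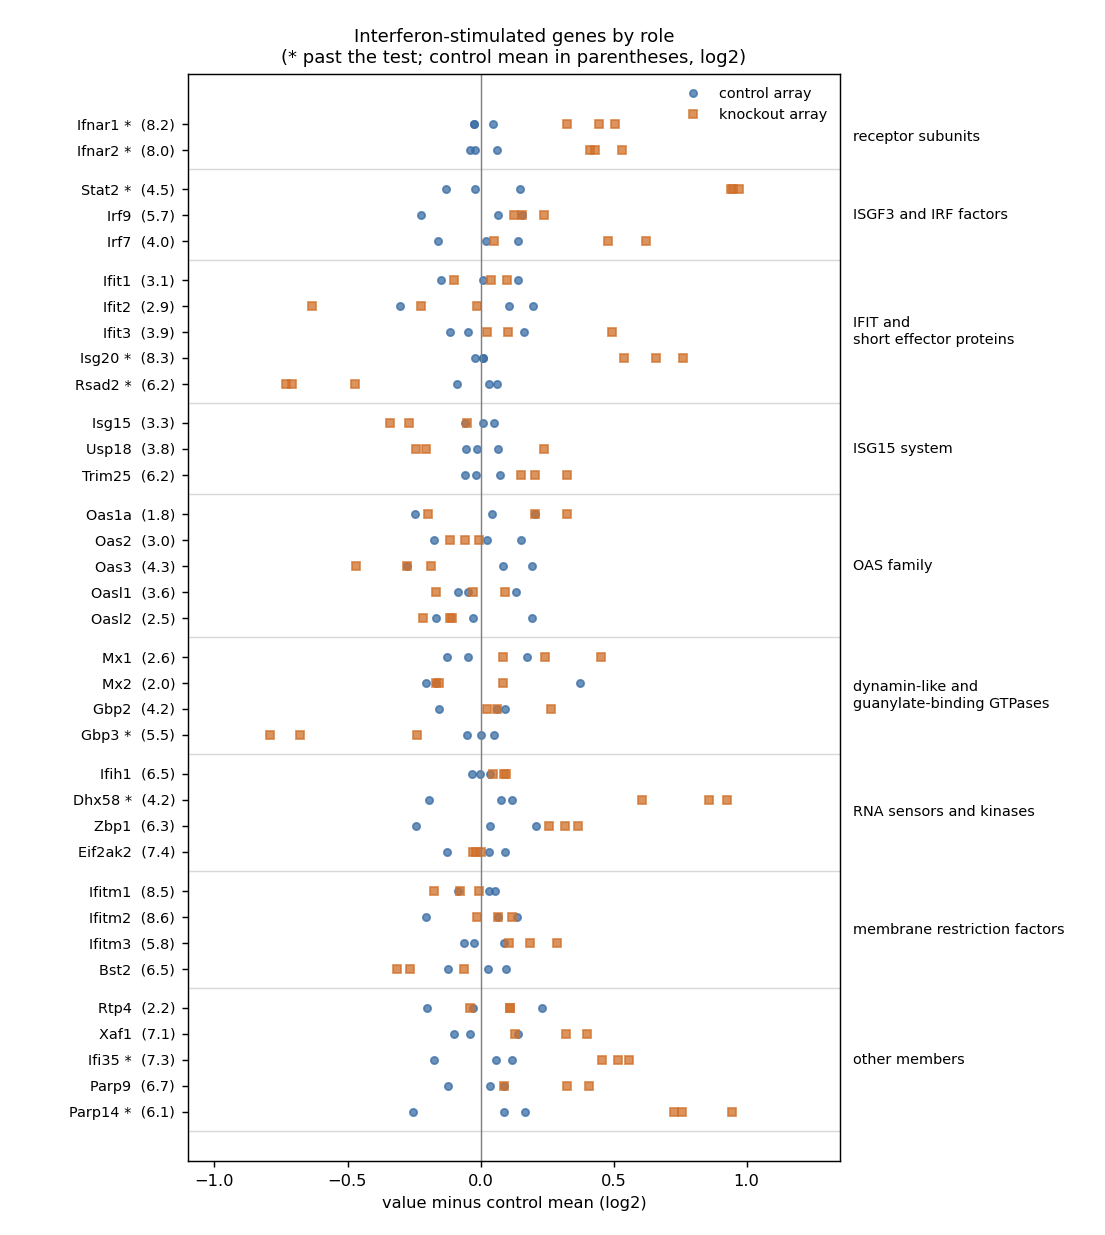
Value of each of the 35 members on each array minus that member's control mean (horizontal axis, log2), grouped by role, with circles for control and squares for knockout arrays. The squares of Ifnar1, Ifnar2, Stat2, Isg20, Dhx58, Ifi35 and Parp14 lie to the right of all their circles and those of Rsad2 and Gbp3 to the left, while the 5 OAS genes overlap.

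Every call was on a member measured above the middle of the array. Of the 35 members, 25 had a mean over all arrays above 3.6, the median of the row means, and 9 of these 25 (36%) passed. Among all rows above that level 18.1% passed. Of the 10 members at or under it, 0 passed in limma, 0 had an unadjusted p under 0.05 and 0 passed by the ordinary test, where 1.42% of all rows at or under it passed. These 10 were Ifit1, Ifit2, Isg15, Oas1a, Oas2, Oasl1, Oasl2, Mx1, Mx2 and Rtp4, with differences of -0.29 to 0.26. Over the 26 members that did not pass, differences lay between -0.31 and 0.38, 15 positive and 11 negative. Those with an unadjusted limma p under 0.05 were Irf7, Trim25, Zbp1, Xaf1 and Parp9 (0.0279 to 0.0374), all with positive differences. Over all 35 members 14 had such a p, beside 5780 of 25206 rows. All 14 were among the 25 above the median level, where 4690 of 12601 rows had one.

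Array by array, the median member lay 0.0867, 0.0933 and 0.203 above its control mean in knockout replicates 1, 2 and 3. In control replicates 1, 2 and 3 it lay at -0.02, 0.0367 and 0. The members that did not pass had medians of 0.0567, 0.0533 and 0.065 in the knockout arrays.

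**Figure D3:**
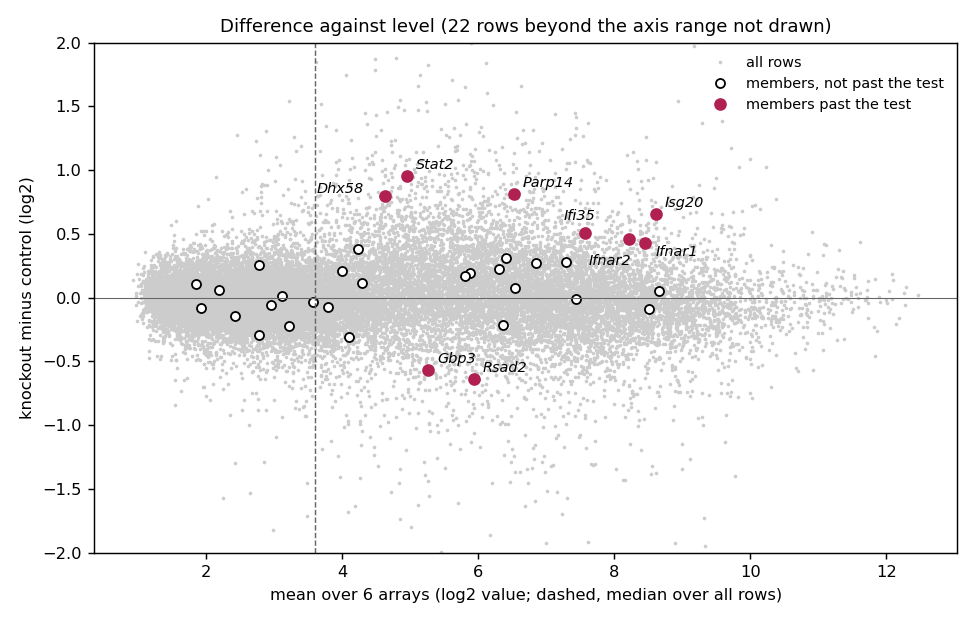
Difference of knockout minus control (vertical axis, log2) against the mean over the 6 arrays (horizontal axis, log2) for all rows in grey and the 35 members as circles, filled for those past the test. All 9 filled circles lie to the right of the dashed line at the median level, and the 10 members to its left are open. The 22 rows beyond a difference of 2 are not drawn.

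Other genes of the interferon pathway were taken from 6 lists, of whose 176 entries 163 had a named row. Of the 163, 25 rose, 13 fell and 125 did not pass, so 23.3% were called, beside 9.75% of all rows and 18.1% of rows above the median level. Both group means were under 3.6 for 36 of the 163. The number called was 20 without control replicate 2, 22 without control replicate 3 and 23 without knockout replicate 2.

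The interferon genes themselves were mostly low. Of 17 measured ligands 11 had both group means under 3.6, 1 fell and none rose, with a median difference of 0.00. That call is 5.88% of the list, beside 9.75% of all rows. Ifnb1, the interferon made first in most infected cells, read 1.72, 1.76 and 1.76 in control and 2.12, 1.67 and 1.75 in knockout (limma adjusted p = 0.714). Ifng, the type II interferon, read 2.63 ± 0.072 and 2.47 ± 0.17 (adjusted p = 0.464). Ifna7, a type I interferon with many close relatives, fell from 3.86 ± 0.13 to 3.06 ± 0.087 (adjusted p = 0.0021), values around 3.6 where background and signal are not told apart.

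Upstream of the ligands, 5 of 25 measured genes of nucleic acid sensing rose and 1 fell. So 24% were called, beside 9.75% of all rows and 18.1% of rows above the median level. Ikbke, a kinase gene whose product phosphorylates IRF3 and IRF7, rose from 5.49 ± 0.15 to 6.43 ± 0.055 (limma adjusted p = 0.00113). Mavs, the adaptor of RIG-I and MDA5, rose from 7.59 ± 0.14 to 8.23 ± 0.042 (adjusted p = 0.00538). Sting1, the adaptor of the DNA sensor cGAS, fell from 8.63 ± 0.07 to 7.90 ± 0.078 (adjusted p = 0.00186). Mavs and Sting1 thus moved in opposite directions. Ticam1 and Myd88, from the same list and chosen after their values were seen, did not pass (adjusted p = 0.318 and 0.849). Samhd1, which limits the nucleotide pool, rose by 0.55 and Trex1, a DNA-degrading exonuclease gene, by 0.40. Trex1 kept its call when knockout replicate 3 was left out but lost it without any other single array (adjusted p 0.0441 to 0.0878), and with the replicate number as a block.

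In the list of receptors and JAK-STAT signalling, 5 of 24 rose and 5 fell. The share called was 41.7%, beside 9.75% of all rows and 18.1% of rows above the median level. Il10rb, a receptor chain shared by interferon lambda and IL-10, rose from 8.18 ± 0.025 to 8.75 ± 0.089 (limma adjusted p = 0.00478). Ifngr2, the signalling chain of the interferon gamma receptor, rose from 7.0 ± 0.078 to 7.55 ± 0.10 (adjusted p = 0.00794). Its partner Ifngr1, chosen after its values were seen, went from 8.01 ± 0.10 to 7.75 ± 0.12, short of the threshold (adjusted p = 0.161). Socs1, a feedback inhibitor of JAK kinases, rose from 7.98 ± 0.15 to 8.46 ± 0.056 (adjusted p = 0.0199), and Pias3, an inhibitor of STAT3, rose by 0.72. Stat5a, a signal transducer downstream of IL-2, fell by 0.69 and Socs3, which restrains cytokine receptors of the IL-6 family, fell by 0.50. Stat5b, a relative of Stat5a chosen after its values were seen, rose from 6.97 ± 0.026 to 7.33 ± 0.066 (adjusted p = 0.0267). Stat5a lost its call in the ordinary test without moderation alone (adjusted p = 0.0506). Socs1 missed the threshold without control replicate 2 or 3 or knockout replicate 1 or 2 (adjusted p 0.0181 to 0.0767). Socs3 missed it without control replicate 1 or 2 or knockout replicate 1 or 3 (adjusted p 0.0224 to 0.0671). Both Socs1 and Socs3 also missed it in the ordinary test without moderation (adjusted p = 0.0778 and 0.0761).

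Of 9 interferon regulatory factors and their binding partners, 1 rose and 2 fell. These are 33.3% of this short list, beside 9.75% of all rows and 18.1% of rows above the median level. Irf8, a factor of myeloid and lymphoid cells, read 7.88, 7.88 and 7.88 in control and 6.94, 6.99 and 6.93 in knockout, a fall by 0.93 (limma adjusted p = 0.000394). Irf4, a factor that antigen and cytokine signals induce in lymphocytes, read 9.62, 9.68 and 9.68 in control and 8.46, 8.30 and 8.20 in knockout, a fall by 1.34 (adjusted p = 0.000194). The groups lay far apart for both genes. Irf2bp2, a corepressor of IRF2, rose by 0.43. Its call was lost with the replicate number as a block and in the ordinary test without moderation. It was also lost in all fits that left out 1 array except that without control replicate 2 (adjusted p 0.0303 to 0.0862). Irf1, which acts early in interferon responses, read 6.77 ± 0.15 and 7.04 ± 0.12 (adjusted p = 0.181), and Irf3, which sensors activate, read 6.31 ± 0.081 and 6.65 ± 0.098 (adjusted p = 0.0519). For Irf3, 4 of 14 alternatives gave a call, with adjusted p from 0.0177 to 0.166.

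Among 69 further interferon-stimulated genes 13 rose, 3 fell and 53 did not pass, with a median difference of 0.07. Calls made up 23.2% of them, beside 9.75% of all rows and 18.1% of rows above the median level. Gbp8, a guanylate-binding protein gene, had the largest rise, from 5.72 ± 0.13 to 6.80 ± 0.12 (limma adjusted p = 0.00079). Irgm2, an immunity-related GTPase gene, rose from 5.46 ± 0.14 to 6.41 ± 0.067, and Pml, the scaffold of nuclear bodies, from 6.62 ± 0.091 to 7.30 ± 0.096 (adjusted p = 0.00103 and 0.00363). Epsti1, an interferon-induced gene of epithelial and immune cells, fell from 5.96 ± 0.079 to 5.34 ± 0.052 (adjusted p = 0.00348).

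**Figure D4:**
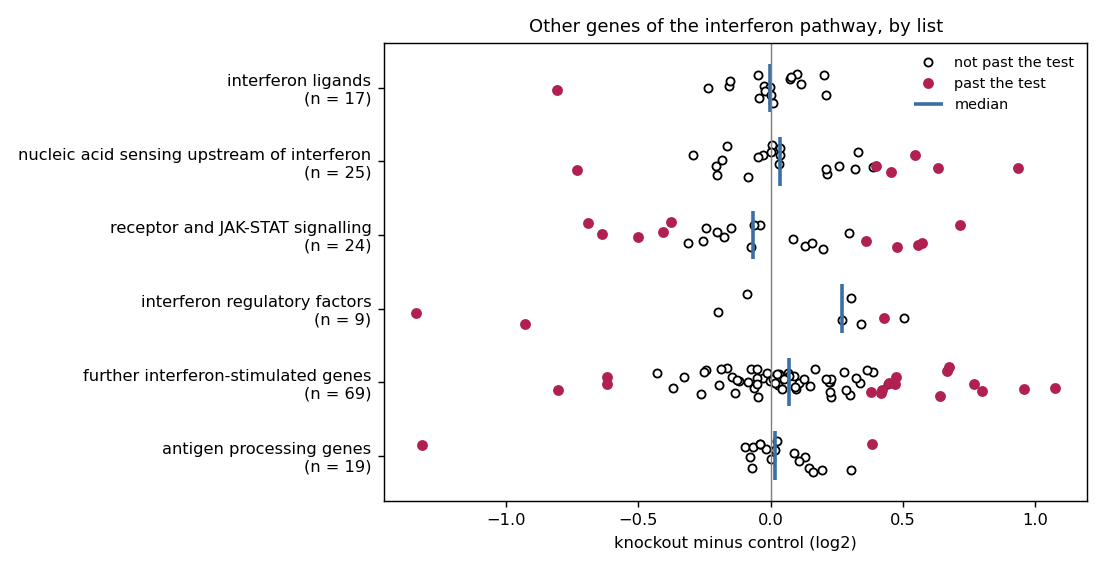
Difference of knockout minus control (horizontal axis, log2) for 163 genes in 6 lists of the interferon pathway, filled where past the test, with the list's median as a bar and points spread vertically for legibility. The largest falls are those of Irf4 (-1.34) and Ctss (-1.32), and among 69 further interferon-stimulated genes 13 of the 16 filled points lie to the right of 0.

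Markers of cells that respond to or make interferon were read beside these results. Of 7 measured markers of plasmacytoid dendritic cells, 0 passed in limma and 0 had an unadjusted p under 0.05. Their mean level was 3.10 to 3.16 over control arrays and 3.0 to 3.18 over knockout arrays, and 5 of the 7 read under 3.6 in both groups. Of 8 macrophage and monocyte markers 0 passed and 0 had an unadjusted p under 0.05, with mean levels of 3.67 to 3.77 and 3.63 to 3.80. The ordinary test passed 0 in both lists, and 4 of the 8 macrophage and monocyte markers read under 3.6 in both groups. Beside these 2 lists, 9.75% of all rows and 1.42% of rows at or under the median level passed in limma. Of all 25206 rows, 5780 had an unadjusted p under 0.05 and 1254 passed the ordinary test. Siglech (2.76 and 2.77), Csf1r (2.86 and 2.71) and Adgre1 (2.15 and 1.97) were low, whereas Tcf4 (5.70 and 5.87), Cd68 (5.87 and 5.84), Ly6c2 (5.82 and 5.88) and C1qa (4.01 and 3.99) read above 3.6. T cell markers had 2 falls (Trac and Cd247) among 10 and mean levels of 4.23 to 4.31 in control and 3.98 to 4.12 in knockout, with Cd3e at 2.71 and 2.72. B cell markers had 1 rise (Ighm) among 5, at 2.73 to 2.82 and 3.10 to 3.24, with Ms4a1 at 1.47 and 1.48. NK cell and ILC1 markers had 2 falls (Prf1 and Gzmb) among 7, at 5.62 to 5.86 and 5.48 to 5.61. Mast cell markers had 1 fall (Cpa3) among 6, at 3.08 to 3.18 and 2.47 to 2.79, with Ms4a2 at 1.66 and 1.70. Both group means were under 3.6 for 4 of the T cell, 4 of the B cell, 4 of the NK cell and ILC1 and 5 of the mast cell markers. Calls were 20%, 20%, 28.6% and 16.7% of the T cell, B cell, NK cell and ILC1, and mast cell lists, beside 9.75% of all rows. The part of the T, B, NK and mast cell markers in the interferon results was not tested.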

How the data were processed

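Per the labels' protocols, biotin-labelled Trizol RNA of each sample was hybridised to 1 single-colour array. The deposited values were taken as log2 expression, a scale read from the values (0.66 to 12.51). The authors' steps are known only as far as RMA and limma 3.14.4 stand in the submitters' processing notes, which give neither role nor order. RMA compresses differences near background, and its quantile step hides a change shared by most genes. Of 25206 rows 23185 had 1 symbol, 0 several and 2021 none, and all 23185 were matched by Entrez number to the RefSeq gene table of GRCm38.p6. Promoter sequences are those of RefSeq on the same build.

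The values were used as deposited in limma 3.58.1 under R 4.3.3, with 1 coefficient per group, moderated two-sided tests and Benjamini-Hochberg adjustment over all rows, threshold 0.05. Depth does not apply to arrays, and their number (6) limits the precision. Rows had a median residual SD of 0.131. The test was checked on simulated data. Members and lists were chosen with earlier results of these data known, and adjusted p-values are over all rows. Named were all measured members, a panel (Cbfb, the RUNX genes, Jak1, Tyk2, Irf1, Irf3, Irf8, Socs1, Ifnb1 and Ifng) and up to 5 genes past the threshold with the smallest adjusted p in each related list, besides genes stated to be chosen after their values were seen. Listed names without a named row were not analysed here. Alternatives tried were each array left out in turn, a block for the replicate number, thresholds of 0.01 and 0.1, quantile normalisation again, centring, array weights, a trended and robust prior, named rows alone, rows above the median level and an ordinary test without moderation.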

Additional observations from a re-analysis of the deposited data

How the results depend on the processing

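Of the 9 members past the threshold, 3 (Stat2, Ifnar2 and Isg20) passed in all 14 alternatives that keep the threshold, and 6 lost it in at least 1. Rsad2, Dhx58 and Parp14 lost it in the ordinary test without moderation alone (adjusted p 0.0514, 0.0656 and 0.0711). No member past the threshold changed sign in these alternatives, while 9 of the 26 others did in at least 1. The number of members called was 7 to 8 when 1 array was left out, 4 in the ordinary test and 5 at a threshold of 0.01. Of these 5 to 7 were higher when 1 array was left out, 4 in the ordinary test and 4 at 0.01. The lower members numbered 1 to 2 when 1 array was left out, 1 after centring, 0 in the ordinary test and 1 at 0.01. With the replicate number as a block 8 members were called, 7 higher and 1 lower, as the call of Gbp3 was lost. The median change of the members, 0.11, was 0.0667 to 0.163 when 1 array was left out and 0.207 over rows above the median level, where fewer members are counted. Genes called in the related lists numbered 20 to 30 when 1 array was left out, 27 with the block, 21 in the ordinary test and 17 at 0.01. Over all rows the counts were 1307 to 1837 when 1 array was left out (763 to 1113 higher, 544 to 786 lower), 1745 with the block, 1254 in the ordinary test (672 higher, 582 lower) and 966 at 0.01 (569 higher, 397 lower). A trended and robust prior gave 1626 lower rows. The cause of these differences was not tested. Same-numbered arrays deviated from their group means with correlations across rows of 0.0249, 0.00669 and 0.0539. Of the 6 arrays, 3 correlated best with their own number. With 3 arrays a group, these values cannot tell whether same-numbered arrays shared a culture or batch. Low signal limits the 10 members at or under the median level, for which a change can be understated.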

Other observations

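Ifnar1 and Ifnar2 lie side by side with 2 other receptor genes on mouse chromosome 16, and Runx1 lies further along the same chromosome. In the RefSeq order of GRCm38.p6 the protein-coding genes run Ifnar2, Il10rb, Ifnar1 and Ifngr2, and all 4 rose, by 0.46, 0.57, 0.43 and 0.56 on the log2 scale (limma adjusted p = 0.0115, 0.00478, 0.0175 and 0.00794). The next gene on one side, Olig1, read 3.26 and 3.34 in control and knockout, and the next on the other, Tmem50b, read 7.96 and 7.99 (adjusted p = 0.746 and 0.864). Between the receptor genes and Runx1 16 genes were measured, and none of them passed, with differences of -0.34 to 0.22. Runx1, whose product binds DNA as a partner of CBFβ, read 7.02, 6.60 and 6.71 in control and 7.85, 8.18 and 8.13 in knockout, a rise of 1.28 (adjusted p = 0.00121). This stretch was chosen after its values were seen, so the pattern is a description with no test of its own. Runx3 read 9.06 ± 0.17 and 9.30 ± 0.042 (adjusted p = 0.198).

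Genes of antigen processing, many of which interferons raise, were bright, and 2 of 19 measured passed. That share, 10.5%, is close to the 9.75% of all rows and lies under the 18.1% of rows above the median level. Tapbp, which encodes the peptide-loading chaperone tapasin, rose from 9.57 ± 0.049 to 9.96 ± 0.049 (limma adjusted p = 0.0206), a call lost with the replicate number as a block (adjusted p = 0.0639) and without control replicate 2, control replicate 3, knockout replicate 2 or knockout replicate 3 (adjusted p 0.0378 to 0.0845 over 6 fits). Ctss, the gene of the lysosomal protease cathepsin S, read 7.71, 7.77 and 7.70 in control and 6.46, 6.43 and 6.34 in knockout, a fall by 1.32 (adjusted p = 0.000113). The other 17 did not pass, and the list's median difference was 0.02.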
